A study of Mus musculus with 13 samples.

Results

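The genes that copy DNA and carry cells from G1 into S phase were read in cultured mouse primary keratinocytes, which build the epidermis, before tamoxifen and up to 240 min after it. The list held 46 genes, and every probe set annotated to only 1 of them was considered, with 1 probe set per gene, that with the highest mean over the 13 arrays. This gave values for 44 of the 12394 genes named on the array. Gins2 and Chaf1a had no such probe set here. Of the 44 genes, 42 passed a filter on dim genes (log2 level of at least 7.83, the 40th percentile) and were tested, and Cdc7 and Tyms were below it.

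All cultures carried a retrovirus that expresses the p63 isoform DNp63alpha fused to an estrogen receptor domain, which tamoxifen switches on. Basal cells of the epidermis make mostly this isoform. The tamoxifen-treated cells gave 12 arrays, spaced 20 min apart and ending at 240 min, and the untreated cells 1 array, with no replicate at any time. A gene's change was therefore set against how far the arrays lay from a straight line, or against the spread within stretches of neighbouring times. Neither cells lacking the fusion nor cells kept untreated for the same times were analysed here, so induction, tamoxifen itself, handling and elapsed time cannot be told apart.

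Replication starts at origins that are loaded in G1 with the MCM helicase by the origin recognition complex, CDC6 and CDT1. Cyclin E with its kinase, and the kinase pair CDC7 and DBF4, then turn the loaded helicase into a moving fork with CDC45 and the GINS complex, and polymerases, the PCNA clamp and nucleotide supply follow. Most of these genes are known targets of E2F transcription factors, which are held back by the retinoblastoma protein in G1, and basal keratinocytes are the dividing cells of the epidermis.

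The promoter windows of 4 members are shown because they hold matches to the E2F motif and because their courses, given further on, carry the main patterns: Mcm3, Mcm5 and Mcm6 stood out at 60 min, and Rfc3 was called higher at 80 to 160 min. Each window runs from 250 bases before to 50 after the gene's start, 5′ to 3′ on the gene's strand, from RefSeq on GRCm38.p6. The capitals mark matches to TTTCCCGC, TTTGGCGC, TTTCGCGC or TTTGCCGC on either strand, which may overlap. The windows lie at chr1:20820263-20820562 for Mcm3 (minus strand), chr8:75109259-75109558 for Mcm5 (plus strand), chr1:128359656-128359955 for Mcm6 (minus strand) and chr5:151651159-151651458 for Rfc3 (minus strand).
Mcm3: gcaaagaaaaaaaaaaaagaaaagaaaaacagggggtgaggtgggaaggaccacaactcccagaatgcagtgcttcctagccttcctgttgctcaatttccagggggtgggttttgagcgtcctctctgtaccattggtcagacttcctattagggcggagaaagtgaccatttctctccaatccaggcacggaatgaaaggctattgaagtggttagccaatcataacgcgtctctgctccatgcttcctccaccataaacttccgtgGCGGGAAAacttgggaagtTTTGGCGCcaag
Mcm5: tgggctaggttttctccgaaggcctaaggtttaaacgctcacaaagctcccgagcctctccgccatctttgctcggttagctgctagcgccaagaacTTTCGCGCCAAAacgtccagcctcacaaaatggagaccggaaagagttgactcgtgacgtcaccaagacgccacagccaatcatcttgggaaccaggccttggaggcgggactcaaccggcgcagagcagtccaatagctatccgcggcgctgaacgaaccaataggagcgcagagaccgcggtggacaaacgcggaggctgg
Mcm6: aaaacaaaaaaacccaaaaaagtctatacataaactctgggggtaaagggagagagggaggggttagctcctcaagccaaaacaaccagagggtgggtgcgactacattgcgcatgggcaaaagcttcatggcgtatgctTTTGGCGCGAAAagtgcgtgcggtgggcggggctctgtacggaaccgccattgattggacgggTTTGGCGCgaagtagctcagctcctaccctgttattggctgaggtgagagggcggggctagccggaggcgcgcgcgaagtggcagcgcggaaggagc
Rfc3: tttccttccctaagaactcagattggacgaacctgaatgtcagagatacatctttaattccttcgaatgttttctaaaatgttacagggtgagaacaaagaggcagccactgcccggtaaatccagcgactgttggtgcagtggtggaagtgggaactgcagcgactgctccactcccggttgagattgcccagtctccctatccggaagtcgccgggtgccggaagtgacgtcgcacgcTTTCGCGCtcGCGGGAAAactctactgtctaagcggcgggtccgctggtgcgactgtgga

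Promoter windows were found for 39 of the 46 members, and 13 of these (33.3%) held an E2F match, against 2.26% of all 32851 windows and 5.21% of 6066 tested genes with a window. A member or gene was counted once if any of its windows held the letters. Mcm6 had 3 matches, which began 110, 106 and 47 bases before the start (positions -110, -106 and -47). In Rfc3 they began at positions -10 and 1, where 1 is the first transcribed base. The CCAAT letters that the factor NF-Y can bind were in the windows of 23 members (59%), against 37.4% of all windows and 42.8% of the tested genes, and TTTGAA, the core of the cell cycle homology region of mitotic genes, in 7 (17.9% of members, against 17.9% of all windows and 14% of the tested genes). A p63 core of CATG or CAAG, 6 free bases, and CATG or CTTG was in none of the 39 members' windows and in 2.21% of all windows and 1.48% of the tested genes, which says only that these letters are not in these windows. These matches are a description of the letters, and no binding was measured.

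The identity of the cultures and the arrays was checked first. Of the 13 basal keratinocyte markers listed, 12 were on the array, and Krt14, Krt5 and Krt17 were at or above percentile 99.8 of level among all genes, while Krt15 was at percentile 23.6. Their summed intensity was 82769 to 86697 from 80 to 240 min and 83674 to 87256 up to 60 min. Of the 11 tested, Krt5 rose and Krt17 fell along the course, and at 80 to 160 min Krt5, Itga6 and Lamb3 were higher and Krt17 lower than at 20 to 60 min. Genes of melanocytes were also high, with Dct at percentile 93.1, Tyrp1 at 88.4 and Pmel at 88. Of the 9 fibroblast markers Vim was at percentile 83.7, Col1a1 at 47 and Fbln1 at 41.8, and 6 were below the filter. Of the 7 immune markers Csf1r was at 63.9 and Cd68 at 58, and 5 were below the filter. The summed intensity of the 4 melanocyte markers was 5330 to 5971 from 80 to 240 min and 5665 to 6518 up to 60 min, and 0 of them rose and 1, Mitf, fell along the course. At 80 to 160 min 3 of the 4, Dct, Pmel and Mitf, were lower than at 20 to 60 min. That of the 9 fibroblast markers was 2208 to 2743 from 80 min on and 2288 to 2635 before, and of 3 tested 2 rose, Vim and Fbln1. That of the 7 immune markers was 1422 to 1691 from 80 min on and 1498 to 1725 before, and of 2 tested 1 fell, Cd68. The 4 endothelial markers were all below the filter. The part of these markers in the changes given here was not tested. In bulk RNA a larger share of cells in a phase and more RNA per cell cannot be told apart. Ratios of the 3′ to the 5′ control probe sets were 0.899 to 0.937 from 80 min on and 0.907 to 0.93 before for Gapdh, and 1.17 to 1.27 and 1.16 to 1.21 for Actb. Trp63, the gene of the induced factor, read 1200 to 1396 intensity units from 80 min on and 1028 to 1140 up to 60 min. The fusion is activated as a protein, so this transcript need not move on induction.

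**Figure D1:**
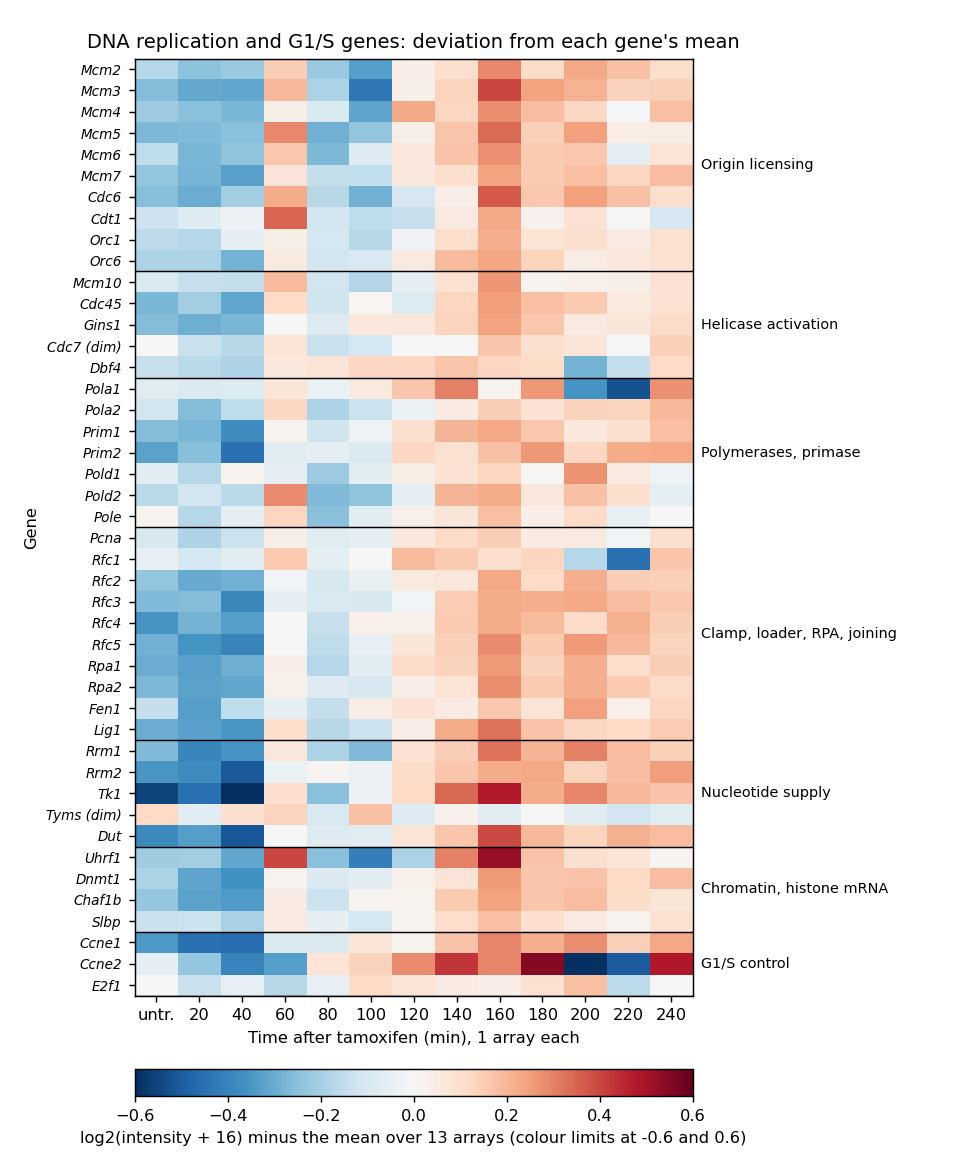
Deviation of each of the 44 members from its own mean over 13 arrays, log2(intensity + 16), with arrays in order of time after tamoxifen and genes grouped by role. The arrays up to 40 min are mostly below the mean, the 60 min array stands above both neighbours for 36 of 42 tested members, and the 160 min array holds the highest level of 29.

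Most replication genes rose over the 4 h and none fell. In a straight-line fit over all 7436 tested genes (limma, Benjamini-Hochberg adjustment, threshold 0.05), 31 of the 42 tested members rose, against 22.3% of all tested genes, and 0 fell, against 17.6%. The median slope of the members was 0.11 per hour on the log2 scale, or 1.36-fold over 4 h, against 0.0049 per hour over all tested genes. The largest rises were those of Tk1 (thymidine kinase, which salvages thymidine), 1.85-fold, Ccne1 (cyclin E1), 1.66-fold, and Dut and Rrm2, 1.61-fold each. The calls rest on the whole course: with a step between 60 and 80 min fitted beside the line, 0 of 42 passed, against 0.0134% of all tested genes. In that fit 26 members had a positive slope at an unadjusted p under 0.05 in limma, against 15.3% of all tested genes. The median slope of all 42 tested members there was 0.10 per hour. Without the untreated and 20 min arrays, 17 members passed, against 10.8% of all tested genes.

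**Figure D2:**
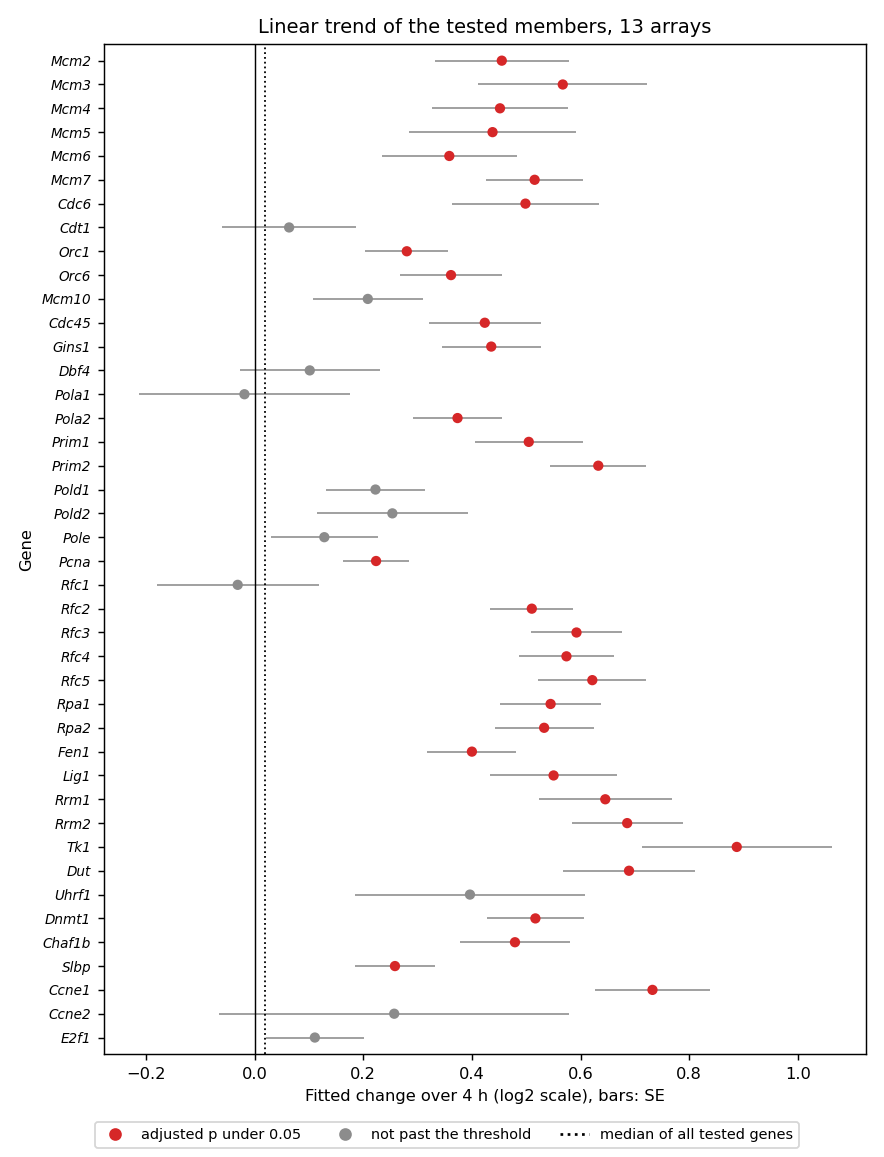
Fitted change over 4 h of each tested member (log2 scale, point) with its standard error (bar), from the straight line over 13 arrays. Red points passed an adjusted p of 0.05 in limma; the dotted line marks the median of all tested genes, and 40 of 42 points lie above 0.

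Of the origin licensing genes, 9 of 10 rose, against 22.3% of all tested genes. The MCM2 to MCM7 proteins form the ring of the replicative helicase, and their transcripts rose by 1.28-fold (Mcm6) to 1.48-fold (Mcm3; 0.57 ± 0.156 over 4 h in log2 units, SE, 13 arrays; adjusted p = 0.00973). Mcm2 and Mcm4 rose 1.37-fold each, and Mcm7 1.43-fold. The loading factor gene Cdc6 rose 1.41-fold, and Orc1 and Orc6 of the origin recognition complex rose 1.21-fold and 1.28-fold. The calls of Mcm5 (adjusted p = 0.0328) and Mcm6 (0.0318) were lost in 5 of the 13 fits that left out 1 array, those without the untreated, 20, 40, 180 or 200 min array, at adjusted p from 0.0505 to 0.0932 for Mcm5 and 0.0531 to 0.0964 for Mcm6. Cdt1, the loader that is destroyed once S phase starts, had a fitted change of 1.04-fold (adjusted p = 0.715).

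Cdt1 read 1589 intensity units in untreated cells, 1642.5, 1694 and 2212 at 20, 40 and 60 min, 1602, 1560.4, 1578, 1803.5 and 2036 from 80 to 160 min, and 1767, 1842, 1736 and 1618 from 180 to 240 min. Its 60 min array was the highest of all 13. Mcm5 read 1067 in untreated cells, 1069.8, 1079 and 1575 at 20, 40 and 60 min, 1051, 1092, 1318, 1448 and 1635 from 80 to 160 min, and 1425, 1529, 1329.3 and 1329.2 from 180 to 240 min. It was near 1070 in the arrays before 60 min and near the same level again at 80 and 100 min, with high arrays at 60 and 160 min.

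Among the genes that turn the loaded helicase into a fork, 2 of 4 tested rose, against 22.3% of all tested genes. Cdc45 and Gins1, parts of the active helicase, rose 1.34-fold and 1.35-fold (adjusted p = 0.00489 and 0.00188). Mcm10, a firing factor, had a change of 1.16-fold (adjusted p = 0.113), and passed without the 60 min array (adjusted p = 0.0282). Dbf4, the regulatory subunit of the CDC7 kinase, had 1.07-fold (adjusted p = 0.558). Its partner Cdc7 was dim, between 164.4 and 210.8 intensity units, and in a fit without the filter its slope was 0.053 ± 0.0193 per hour (SE, 13 arrays; limma adjusted p = 0.0573 over 12394 genes).

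Of the polymerase and primase genes 3 of 7 rose, against 22.3% of all tested genes. The 3 that rose are all of the complex that starts each new strand. The primase subunits Prim2 and Prim1 rose 1.55-fold and 1.42-fold, and Pola2, the second subunit of polymerase alpha, 1.30-fold (adjusted p = 0.000163, 0.00122 and 0.00255). Pola1, its catalytic subunit, had a fitted change of 0.987-fold (adjusted p = 0.948). Pold1, Pold2 and Pole, of the polymerases that extend the strands, had 1.17-, 1.19- and 1.09-fold (adjusted p = 0.0654, 0.16 and 0.317). Pold1 passed without the 240 min array (0.0238), with arrays centred on their median (0.0494) and over the mean of its probe sets (0.00427), and Pold2 passed without the 60 min array (0.0363).

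Clamp, clamp loader, single-strand binding and strand joining genes rose in 9 of 10 cases, against 22.3% of all tested genes. Pcna, the sliding clamp and the brightest member, rose 1.17-fold (0.22 ± 0.0611 over 4 h in log2 units, SE, 13 arrays; adjusted p = 0.00953). The loader subunits Rfc2, Rfc3, Rfc4 and Rfc5 rose between 1.42-fold and 1.54-fold, while Rfc1, the large subunit, had 0.979-fold (adjusted p = 0.887). Rpa1 and Rpa2, which coat single-stranded DNA, rose 1.46-fold and 1.45-fold. The flap nuclease gene Fen1 and the ligase gene Lig1, which finish the lagging strand, rose 1.32-fold and 1.46-fold.

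Rfc3, whose promoter window is printed above, read 373.9 intensity units in untreated cells, 374.9, 341.8 and 434.8 at 20, 40 and 60 min, 423.4, 422.1, 447.3, 505.2 and 529.9 from 80 to 160 min, and 529.3, 533.2, 517.3 and 508.8 from 180 to 240 min. Every array from 140 min on was above every array up to 120 min. Its second probe set had a slope of 0.175 per hour, against 0.148 for the chosen one.

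All 4 tested nucleotide supply genes rose, against 22.3% of all tested genes. The median of these 4 genes, 1.61-fold, was the highest among the 7 roles. Ribonucleotide reductase makes the deoxynucleotides, and its subunit genes Rrm2 and Rrm1 rose 1.61-fold and 1.56-fold (adjusted p = 0.000232 and 0.000938). Dut, which removes dUTP, rose 1.61-fold (adjusted p = 0.00061). Tyms, thymidylate synthase, was dim at 157.2 to 195.8 intensity units, with a slope of -0.043 ± 0.0187 per hour in the fit without the filter (SE, 13 arrays; limma adjusted p = 0.111).

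Tk1 read 1015 intensity units in untreated cells, 1094, 957.2 and 1609.9 at 20, 40 and 60 min, 1256, 1462, 1630.4, 1906 and 2091 from 80 to 160 min, and 1752, 1836, 1717 and 1686.5 from 180 to 240 min. Its fitted rise was 0.89 ± 0.175 over 4 h in log2 units (SE, 13 arrays; adjusted p = 0.00126). Rrm2 read 3548 in untreated cells, 3474, 3181 and 4392 at 20, 40 and 60 min, 4567.5, 4405, 4878, 5068 and 5276 from 80 to 160 min, and 5312, 4959, 5147 and 5379 from 180 to 240 min. Every Rrm2 array from 60 min on was above every earlier one, whereas Tk1 was lower again at 80 and 100 min than at 60 min.

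Among the genes that rebuild chromatin behind the fork, 3 of 4 rose, against 22.3% of all tested genes. They were Dnmt1, the maintenance DNA methyltransferase, 1.43-fold, Chaf1b, a subunit of the histone chaperone CAF-1, 1.39-fold, and Slbp, which binds histone mRNA, 1.2-fold (limma adjusted p = 0.000582, 0.0019 and 0.0114). Uhrf1, which brings DNMT1 to hemimethylated DNA, had a fitted change of 1.32-fold with a wide error (0.40 ± 0.212 in log2 units, SE, 13 arrays; adjusted p = 0.15). Uhrf1 read 597.0 intensity units in untreated cells, 598.0, 556.4 and 920.8 at 20, 40 and 60 min, 580.7, 518.2, 605.9, 858.7 and 1003 from 80 to 160 min, and 784.5, 743.0, 732.4 and 703.0 from 180 to 240 min. Its arrays at 60 and 160 min were well above their neighbours, and without the 60 min array the slope passed (0.13 per hour, adjusted p = 0.04).

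Of the 3 G1/S regulators 1 rose, against 22.3% of all tested genes. It was Ccne1 (by 0.73 ± 0.106 over 4 h in log2 units, SE, 13 arrays, limma adjusted p = 0.000192), and Ccne2 and E2f1 did not pass (limma adjusted p = 0.553 and 0.353). Cyclin E1 and E2 both activate CDK2 at the entry into S phase, and E2F1 is a transcription factor of the program. Ccne1 read 265.0 intensity units in untreated cells, 245.4, 243.7 and 319.9 at 20, 40 and 60 min, 319.3, 358.8, 345.5, 384.9 and 421.3 from 80 to 160 min, and 398.3, 416.0, 377.6 and 402.5 from 180 to 240 min. The arrays up to 40 min were the lowest of its course. E2f1 read 504.3 to 645 over the 13 arrays. Its second, dimmer probe set had a slope of 0.059 per hour (limma adjusted p = 0.0112 over 20393 probe sets), against 0.028 (0.452) for the brighter one, so its probe sets disagree on the call.

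**Figure D3:**
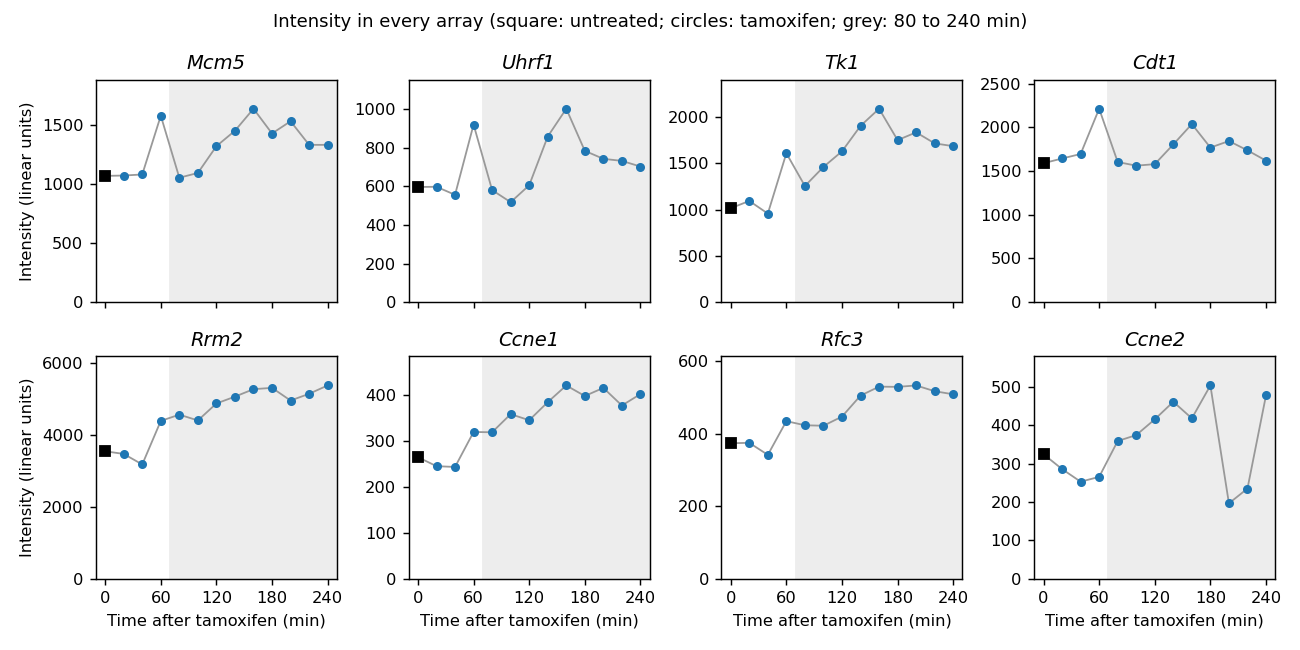
Intensity of 8 members in every array (linear axis from 0; square, untreated; circles, 20 to 240 min after tamoxifen; grey shading, 80 to 240 min). Mcm5, Uhrf1, Tk1 and Cdt1 are above both neighbouring arrays at 60 and at 160 min. Rrm2, Ccne1 and Rfc3 climb and then level off, and Ccne2 is lowest at 200 and 220 min.

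The rise was placed in time with a fit of 4 levels: untreated, 20 to 60 min, 80 to 160 min and 180 to 240 min. Between 80 and 160 min 13 of 42 members were higher than at 20 to 60 min and 0 were lower (limma, adjusted p under 0.05), against 13.4% of all tested genes higher and 15.2% lower. The 13 genes were Rrm2, Ccne1, Dut, Rfc2, Rfc3, Rfc4, Rfc5, Prim1, Prim2, Fen1, Dnmt1, Chaf1b and Gins1, and none was a licensing gene. All 10 licensing genes were above both neighbouring arrays at 60 min, against 26.4% of all tested genes. In 22 members every array from 80 to 240 min was above the untreated, 20 and 40 min arrays, against 16.4% of all tested genes. That grouping is not one of the 4 levels of the fit. It leaves out the 60 min array, where 36 of 42 members were above both neighbouring arrays. The licensing genes Mcm7 and Orc6 were among these 22. Rrm2 was at 12.24 ± 0.106 on the log2 scale at 80 to 160 min and 11.84 ± 0.24 at 20 to 60 min (SD over 5 and 3 arrays; difference 0.40, adjusted p = 0.00387). Ccne1 was at 8.57 ± 0.146 and 8.15 ± 0.212 in the same stretches (difference 0.42, adjusted p = 0.00469). Mcm5, at 10.35 ± 0.266 and 10.27 ± 0.315, did not pass (difference 0.08, adjusted p = 0.729).

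The arrays of both stretches overlapped for most members. In 3 of 42, Dbf4, Rrm2 and Ccne2, every array from 80 to 160 min was above every array from 20 to 60 min, against 15.1% of all tested genes. Without the 60 min array 23 members were called higher at 80 to 160 min, against 12% of all tested genes. Without the 20 or the 40 min array 3 and 2 members were called, against 10.5% and 7.88% of all tested genes. Without the 120, 140 or 160 min array 6, 5 and 5 were called, against 11%, 12.1% and 12%.

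In the other comparisons no member passed. At 180 to 240 min against 80 to 160 min 0 of 42 members were called, as were 0% of all tested genes. At an unadjusted p under 0.05 in limma 1 member was higher and 1 lower. Of the 7436 tested genes 556 (7.48%) were higher and 329 lower at that threshold. The median difference of the members was 0.084 on the log2 scale against 0.020 for all. At 20 to 60 min against the untreated array 0 members and 0% of all tested genes were called. At an unadjusted p under 0.05 in limma 0 members passed, and of all tested genes 51 (0.686%) were higher and 76 lower. Along the 9 arrays from 80 to 240 min 0 of 42 members had a trend past the threshold and 0.0672% of all tested genes did, while 19 members had a positive slope at an unadjusted p under 0.05, as did 11.5% of all tested genes. The median slope of the members there was 0.0945 per hour, against 0.011 for all tested genes. Without the 240 min array 2 members passed upward in that stretch, Pola2 and Rfc3 (limma adjusted p = 0.0477 for both). Of all tested genes 52 (0.699%) rose and 185 fell in that fit, against 1 and 4 with all 9 arrays.

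In 2 single arrays many members were high together, and this was seen in the values before it was counted. At 60 min 36 of 42 members were above both neighbouring arrays, against 26.4% of all tested genes. With a minimum of 1.2-fold on both sides there were 12 of 42, against 1.08% of all tested genes. The 12 were Uhrf1, Mcm5, Tk1, Pold2, Mcm3, Cdt1, Mcm6, Cdc6, Mcm2, Lig1, Mcm10 and Pola2, of which 6 are licensing genes. Uhrf1 was 1.64-fold above the 40 min array and 1.57-fold above the 80 min array, and Mcm5 1.45-fold and 1.49-fold. There is 1 array at this time, so the excursion has no replicate check.

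The 160 min array held the highest level of 29 of 42 members, against 5.39% of all tested genes, although no member reached 1.2-fold above both neighbours there. Other probe sets of the same genes, which read the same RNA, mostly gave the same arrays. Of 25 that passed the level filter, from 20 genes, 21 were above both neighbours at 60 min and 16 were highest at 160 min. For all tested genes, on their chosen probe sets, these shares were 26.4% and 5.39%. The arrays at 20 and 40 min were on average below the untreated array in 35 of 42 members, against 46.9% of all tested genes. The median difference over all 42 members was -0.047 on the log2 scale.

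**Figure D4:**
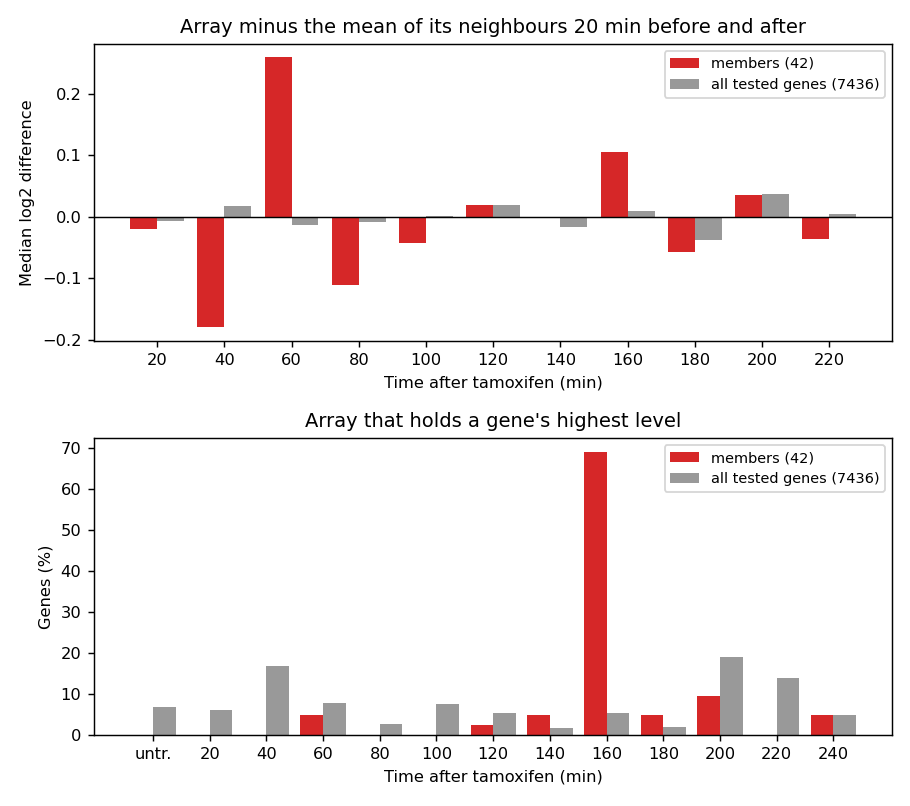
Top, median log2 difference between each array and the mean of the arrays 20 min before and after it, for the 42 tested members (red) and all 7436 tested genes (grey). Bottom, percent of genes whose highest level lies in each array; 60 min stands out in the upper panel (0.26 for the members) and 160 min in the lower one (29 of 42).

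The members moved together around their lines as well as along them. Over 13 arrays the median correlation between pairs of members was 0.82 for the levels and 0.69 for the deviations from each gene's line, against 0.024 and 0.024 over all pairs of tested genes. These arrays share their RNA and scaling across genes, and genes are not independent. Of the tested members with an E2F match in the promoter window 9 of 13 rose along the course, against 22.3% of all tested genes. Of those without a match 18 of 23 rose. The median differences at 60 min from the neighbouring arrays, with and without a match, were 0.36 and 0.26 on the log2 scale. Over all tested genes that median was -0.014. Neither difference between members with and without a match was tested.

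The members least like the others in their deviations were E2f1, Ccne2, Pola1, Pold1, Dbf4, Rfc1 and Fen1, with median correlations of 0.124 to 0.425 with the other members. Of these, Ccne2, Pola1, Rfc1 and Dbf4 were low in the arrays at 200 and 220 min. Ccne2 read 325.0 intensity units in untreated cells, 286.2, 253.3 and 265.9 at 20, 40 and 60 min, 359.4, 374.9, 416.0, 461.8 and 418.6 from 80 to 160 min, and 504.4, 196.8, 235.4 and 478.5 from 180 to 240 min. Its array at 180 min was the highest of the course and that at 200 min the lowest. The mean of the 200 and 220 min arrays differed from that of the 180 and 240 min arrays by -1.13 on the log2 scale for Ccne2, -0.71 for Pola1, -0.46 for Rfc1 and -0.33 for Dbf4, and was within 0.2 for the other 38 members. Of all tested genes 9.31% were lower there by more than 0.2. Without the 200 and 220 min arrays the trends of these 4 genes passed upward. In the same order, the slopes were 0.23, 0.10, 0.066 and 0.084 per hour (limma adjusted p = 0.00123, 0.00443, 0.028 and 0.012). These genes were picked by their low values in those arrays, so an upward shift of their slopes was built in. In that fit 34 of 42 members rose, against 17.5% of all tested genes.

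Other probe sets of the same genes were read as a check on the chosen ones. Of the 44 members 27 had more than 1 probe set. In a fit over all 20393 probe sets named to 1 gene, 18 of these 27 genes rose on the chosen probe set, and they had 24 further probe sets. All 20 of these that passed the level filter rose too, and none of the 4 dimmer ones did. The chosen probe sets of 5 tested members have the suffix s or x, which marks sets that can match several transcripts. They are Mcm2, Mcm3, Mcm7, Fen1 and Rrm2, and each had a further set without that suffix that also rose. For Fen1 the further set had a slope of 0.16 per hour, against 0.10 for the chosen one.

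Other genes of replication and G1/S control, from a separate list of 66, gave lower counts. Of 46 tested 20 rose, against 22.3% of all tested genes, 3 fell, against 17.6%, and 23 did not pass. The median slope of the 46 was 0.056 per hour. The 5 with the largest slopes were Dck, a deoxynucleoside kinase (1.76-fold), the mismatch repair gene Msh6 (1.74-fold), Rpa3 (1.63-fold), Gmnn, which encodes the CDT1 inhibitor geminin (1.54-fold), and the polymerase subunit Pole2 (1.52-fold). The genes that fell were Top1 (0.686-fold), Orc4 (0.781-fold) and E2f5 (0.791-fold), with limma adjusted p between 0.0145 and 0.0422. Top1 and Orc4 were low at 200 and 220 min and higher again at 240 min, so their falls rest partly on those arrays. Against the 180 and 240 min arrays, the log2 difference there was -0.77 for Top1, -0.44 for Orc4 and 0.018 for E2f5. Of 37 tested G2/M genes 23 rose and 0 fell, against 22.3% and 17.6% of all tested genes, with a median slope of 0.10 per hour. At 60 min 12 of 37 passed 1.2-fold on both sides, against 1.08% of all tested genes. The median log2 difference from the neighbouring arrays there was 0.2585 for the 42 members and 0.2615 for the G2/M genes. The 60 min pattern was thus shared by these G2/M genes. Their largest rises were those of the mitotic kinesin gene Kif20a (2.0-fold), Ccnb2 (1.97-fold) and the kinetochore gene Spc25 (1.84-fold). The lists were not tested against each other.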

How the data were processed

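Biotin-labelled cRNA from Trizol-extracted total RNA was hybridised to Affymetrix arrays, per the labels. Each deposited value is a linear intensity of 1 of 22690 probe sets on 1 array. The sources used here do not name the software that summarised and scaled them. The arrays had medians between 237.4 and 251.5 and upper quartiles between 642.7 and 660.3 intensity units, so a change is a shift against most other genes.

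The values were used as log2(intensity + 16), which understates changes of dim genes. The platform table gave 1 gene to 20393 probe sets, several to 691 and none to 1606; only the first were used. Symbols were updated through Entrez identifiers with a RefSeq table of GRCm38.p6 (20364 matched), and each of 12394 genes was read on its brightest probe set. Genes below the 40th percentile (log2 level 7.83) were left out, which left 7436.

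Fits used limma 3.58.1 (R 4.3.3) and its eBayes moderation, which followed an intensity trend, with two-sided tests and Benjamini-Hochberg adjustment over all genes tested at 0.05. All adjusted p-values come from these fits: a straight line of time over 13 arrays, a fit with 4 levels of time, and a line over the 9 arrays from 80 to 240 min. Neighbouring times stand in for replicates, the untreated array, being single, takes its variance from the rest, and separate cultures are stated for no arrays, so a p-value speaks only of the spread among these arrays. Precision is limited by the number of arrays, and the SD about the line had a median of 0.0873 on the log2 scale. Spearman correlations between arrays were 0.983 to 0.997. The fits were tested on simulated data with noise drawn independently for every gene and array. Deviations that many genes share in an array were therefore not covered by that test. The members and gene lists were chosen with earlier results of these data known, as was the cut between 60 and 80 min. All members found on the array were named, with the 5 and 3 largest slopes of the lists of other replication genes and of G2/M genes. Alternatives covered the filter, pseudocount, normalization, probe set choice, moderation and the arrays used.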

Additional observations from a re-analysis of the deposited data

How the results depend on the processing

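Counts of members called higher were recomputed under each alternative, and no setting called a member lower in any comparison. For the straight line over 13 arrays the count of 31 of 42 was 29 to 34 with 1 array left out, 17 without the untreated and 20 min arrays, and 0 with a step between 60 and 80 min beside the line. The shares of all tested genes that rose were 17.6% to 23.2%, 10.8% and 0.0134%, in the same order. Over all tested genes the line called 2968, against 1353 and 1 under those settings. The slopes of Pola1 (-0.0047 per hour) and Rfc1 (-0.0078) turned to 0.1004 and 0.0664 without the 200 and 220 min arrays and passed; this follows from their low values in those arrays. For 80 to 160 min against 20 to 60 min the count of 13 was 2 to 23 with 1 array left out and 22 without the 60 and 160 min arrays, an alternative chosen after seeing the data. The shares of all tested genes called higher were 7.88% to 14% and 10.9%, in the same order. Over all tested genes that contrast called 2128, and 1225 without the 40 min array. For the trend from 80 to 240 min the count of 0 was 0 to 2 with 1 array left out and 1 without the 200 and 220 min arrays, and 5 genes in all were called, against 0 to 237 with 1 array left out, 101 without the 200 and 220 min arrays and 3 to 16 under the other settings. The other 2 comparisons called 0 members under every setting, and the median of the members at 20 to 60 min against untreated was -0.047 without the 60 min array and 0.052 with it. The untreated array could not be left out of that comparison. Pseudocounts of 1 and 64, the filter, quantile normalization, median centring, averaged probe sets and both other moderation settings kept the count of the straight line between 26 and 33, the lowest under the stricter filter, which tested 33 members. Under these settings 13.4% to 24.8% of all tested genes rose, the lowest share without a filter. No paired analysis was possible because there is 1 array per time. Intensities near the background of the array limit Cdc7 and Tyms, and the lack of replicates limits every statement on a single array.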

Other observations

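Some genes outside the cell cycle were also high in the 60 min array, and those given here were chosen after their values were seen. Over all 7436 tested genes, 80 were past 1.2-fold above both neighbours at 60 min and 163 past it below, and at 160 min 7 were above and 98 below. More genes were past it above at 40 min (167), 180 min (137) and 200 min (90) than at 60 min. Mt1, which encodes the metal-binding protein metallothionein, had the largest difference of all 7436 tested genes between the 60 min array and the mean of its neighbours (1.90 on the log2 scale). It read 1712 intensity units in untreated cells, 713.3, 967.6 and 2924 at 20, 40 and 60 min, 616.4, 602, 596.5, 961.1 and 1557 from 80 to 160 min, and 661.2, 732.8, 631.2 and 676 from 180 to 240 min. Mt1 was thus high at 60 and 160 min, as many replication genes were, and also in untreated cells. Krt8, a keratin of simple epithelia, read 1413, 1606 and 703.8 at 40, 60 and 80 min, and 706.8, 886.8 and 629.6 at 140, 160 and 180 min, so its 60 min level was near that at 40 min. Uhrf1 ranked 4th, Mcm5 10th and Tk1 12th of the 7436 genes in that difference. Whether these genes and the replication genes share a cause was not tested.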
